A study of Oryza sativa with 4 samples.

Results

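The transcripts described here had more signal in young panicles of the rice mutant *phoenix* (*pho*) than in those of WT, at each of the panicle lengths measured. They were chosen by their signals on the 4 arrays of the study. A probe set was taken when its signal was at least 300 on both *pho* arrays and when log2((*pho* + 16)/(WT + 16)) was at least 1.5, about 2.8-fold, at each length. Of 57258 probe sets, 145 met these values (0.253%), *JAZ2*, *OsMADS50* and *OsMADS55* were left out because the rule omits JAZ and OsMADS genes, and 142 gained probe sets remained. Because *pho* over WT chose them at both lengths, all ratios of *pho* to WT below are descriptions, given with no test.

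WT was the *indica* cultivar Zhongxian 3037. The study found *pho* among offspring of the same cultivar, as a natural mutant that forms plantlets where flowers would stand. The study's genetics describe *pho* as a double mutant, with a genetic lesion in *OsMADS15* and an epigenetic silencing of *OsMADS1*, so the arrays do not separate their effects. Plants grew in paddy fields, and each genotype gave 1 array of panicles 5–8 cm long (the shorter panicles below) and 1 of panicles 9–12 cm long (the longer), with no treatment named. One description line of the 9–12 cm WT sample names *pho*, whereas its title, source and genotype give WT, and it was used as WT. The labels do not say whether the samples came from separate plants. The length is the only thing that differs in name between the arrays of a genotype, so length and the spread between samples cannot be told apart.

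The values are MAS5 signals, which estimate the hybridization of each probe set on a linear scale. The median signal was 49.0 to 68.1 per array, so values near that cannot be told from background. Pairs of signals are given with WT first and *pho* after it, and folds are ratios after 16 was added to both signals. The *pho* array of 9–12 cm stood apart, with correlations of 0.796 to 0.827 with the other arrays, compared with 0.877 to 0.935 among those. As a measure of RNA quality, the actin control's 3′ signal was 10.6 (shorter) and 4.95 (longer panicles) times its 5′ signal in WT, against 3.28 and 5.26 times in *pho*, and for GAPDH the values were 16.4, 9.62, 6.87 and 10.96 in the same order. In whole panicles, fewer cells of a type and less RNA per cell cannot be told apart. The tissue label was checked on 15 measured inflorescence and meristem genes, 13 of which had a mean signal of at least 100, with summed signals of 33398 to 36102 in WT and 34743 to 40256 in *pho*.

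Of the 20 gained genes that carry a name, 6 were in a list of genes named for the response to abscisic acid (ABA) and drying. ABA is the plant hormone that rises when tissue loses water and when seeds mature. Its receptors inhibit a group of protein phosphatases (PP2Cs), which releases kinases and transcription factors that switch on protective proteins such as dehydrins and other late embryogenesis abundant (LEA) proteins. A cytochrome P450, the ABA hydroxylase, degrades the hormone again and is itself induced by it. DREB1 factors act beside this pathway, and are best known for turning on genes during cold and drought. Of the 6 genes, *DREB1A* is such a factor. *PP2C59* is counted by its PP2C name alone, and whether it is among the phosphatases that the receptors inhibit was not tested.

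The 142 gained probe sets had a median signal of 335 in WT against 1433 in *pho* in the shorter panicles, and of 209.7 against 2642 in the longer. Their median log2 ratio was 2.13 at 5–8 cm, a 4.38-fold difference, and 3.15 at 9–12 cm, an 8.88-fold difference. Among all 57258 probe sets the medians were 0.01 and 0.02. The log2 ratio was 2 or more at both lengths for 68 gained probe sets, 3 or more for 16 and 4 or more for 5. Both *pho* signals lay above both WT signals for 137 of the 142, a pattern that the choice nearly fixes and that 17.9% of the 23929 probe sets averaging 100 or more over the arrays also had. The WT signal was below 100 on both arrays for 15, on 1 array for 29 and on neither for 98, so most had a WT signal above the array medians. If the *pho* array of 9–12 cm is left out and that of 5–8 cm stands for both lengths, 188 probe sets meet the rule and 123 of them are among the 142. Without the *pho* array of 5–8 cm, 1426 meet it, with 128 among the 142. Without the WT array of 5–8 cm 367 meet it, 123 of them among the 142, and without that of 9–12 cm 178 do, with 128.

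**Figure D1:**
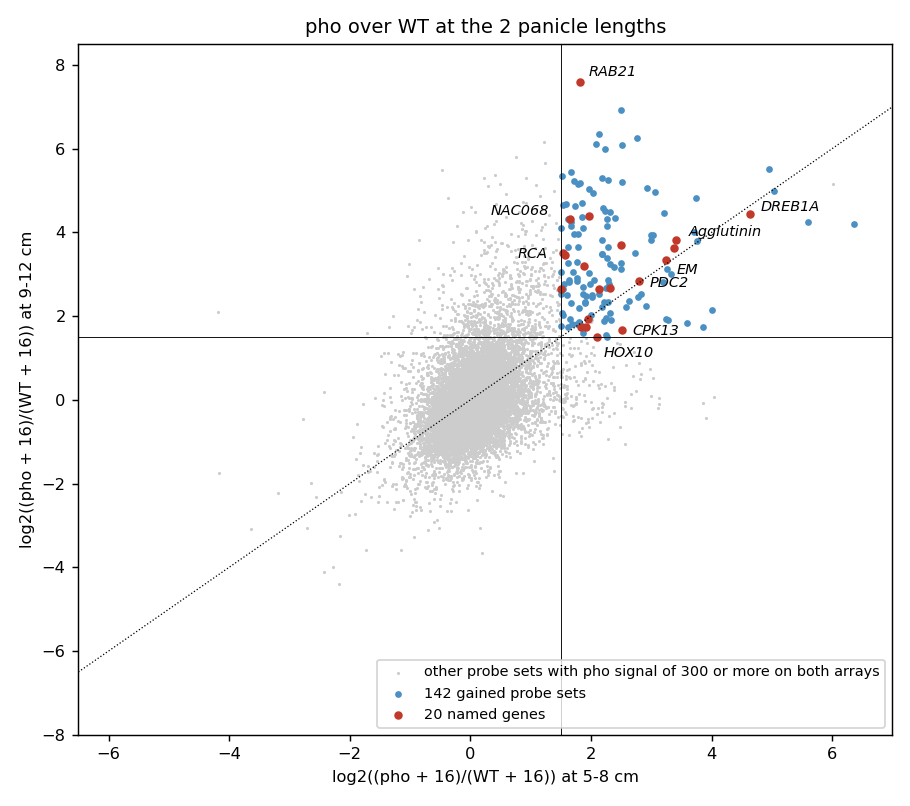
Log2 ratio of *pho* over WT at 5–8 cm (x axis) and at 9–12 cm (y axis) for probe sets with a *pho* signal of at least 300 on both arrays. Gained probe sets are blue and the 20 named genes red, the solid lines mark the ratio of 1.5 that chose them and the dotted line marks equal ratios. Of the 142 gained probe sets, 112 lie above the dotted line.

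The annotation gives 1 gene for 100 of these probe sets, several genes for 2 and none for 40. The 100 belong to 90 genes, of which 20 carry a name and 70 only a locus number. Of the genes, 8 had more than 1 gained probe set, *RAB21* and *ALDP* among them. Probe sets whose ID marks a match to several transcripts made up 56 of the 142, or 39.4%, compared with 19.9% of all probe sets. Their signals may therefore mix transcripts of the same gene or of near-identical genes.

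Just inside the limits lay LOC4324829, with signals of 589 in WT against 1696 in *pho* in the shorter panicles and 375 against 2392 in the longer, where the smaller of its log2 ratios barely exceeded 1.5. Just outside lay LOC4343813, with 162 against 482 in the shorter panicles and 1295 against 4841 in the longer, where it was 1.49. At the limit on the signal, LOC4351732 had a *pho* signal of 309 at 5–8 cm and was taken, and LOC4336684 had 292 and was not.

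*DREB1A*, a transcription factor of the DREB1 family, had the highest ratio of the named genes when each gene is ranked by the smaller of its ratios. Its signal was 57.1 in WT against 1808 in *pho* in the shorter panicles and 143 against 3417 in the longer, which is 24.9-fold and 21.6-fold. The *pho* signals lay far above background and the WT signal at 5–8 cm near it, so that with 64 added in place of 16 the log2 ratios were 3.95 and 4.07 instead of 4.64 and 4.43. *ABA8OX1*, an ABA hydroxylase, had signals of 274 in WT against 3005 in *pho* in the shorter panicles and 423 against 5450 in the longer. Its ratio was thus 10.4-fold and 12.4-fold, and in both genotypes the longer panicles had the higher signal. *PP2C59*, by its name a PP2C phosphatase, had 228 against 1199 in the shorter panicles and 123 against 864 in the longer, and here the longer panicles had the lower signal in both genotypes.

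The dehydrin and LEA genes differed widely between the lengths. *RAB21*, a dehydrin induced by ABA, had signals of 4089 in WT against 14466 in *pho* in the shorter panicles and 27.2 against 8350 in the longer. In WT the signal was thus at background in the longer panicles, whereas it was high in *pho*, and *pho* over WT came to 1.82 on the log2 scale in the shorter panicles and 7.60 in the longer. The second of these rests on a WT signal at background, and it was 6.53 with 64 and 8.21 with 1 added in place of 16. The second *RAB21* probe set, marked for several transcripts, had 1695 against 6190 in the shorter panicles and 128 against 3732 in the longer, with 25.97-fold at the longer length. Both probe sets give the same order of the 4 arrays, and the size of the ratio at 9–12 cm depends on how close to background the WT signal is read. *RAB16B*, the dehydrin gene beside *RAB21*, had 445 against 2589 in the shorter panicles and 56.6 against 934 in the longer. *EM*, an LEA gene of the maturing embryo, had 846 against 8140 in the shorter panicles and 74.7 against 902 in the longer. For both genes the longer panicles had lower signals in either genotype, while *pho* stayed above WT at each length.

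**Figure D2:**
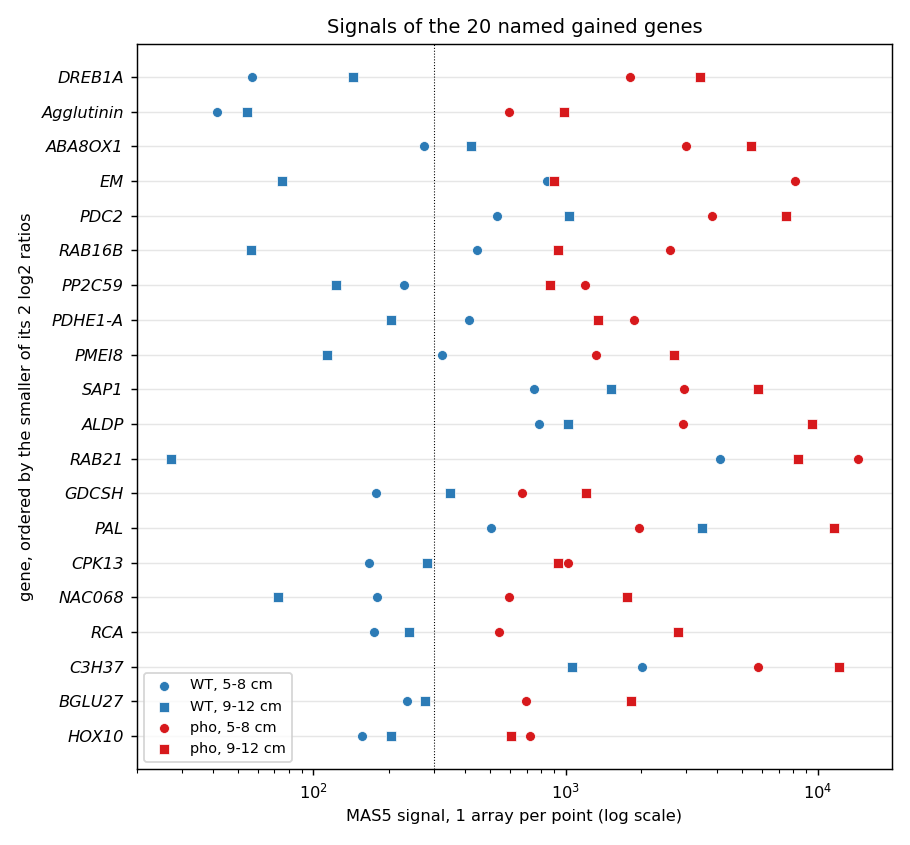
MAS5 signal (x axis, log scale) of the 20 named gained genes on each of the 4 arrays, with WT in blue, *pho* in red, circles for 5–8 cm and squares for 9–12 cm. Genes are ordered by the smaller of their log2 ratios, and the dotted line marks the signal of 300 required in *pho*. The WT square of *RAB21*, at 27.2, is the lowest point, and *PAL* is the only gene whose WT and *pho* signals overlap.

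The list that holds these 6 genes was drawn up by gene name. Of its 78 measured genes, 6 were among the gained, or 7.69%, compared with 0.503% of all genes. *EM* was added to the list and other names were taken out of it after values had been seen, and as first written it held 5 gained genes of 79, or 6.33%. Of the 72 with a mean signal of at least 100, 32 were higher in *pho* at both lengths, or 44.4% against 27.2% of all genes, and 9 were higher by 2-fold or more at both, or 12.5% against 2.19%. Since *pho* over WT chose the gained genes, these shares are a description, and without them 26 of 66 were higher at both lengths, or 39.4%, and 3 by 2-fold or more, or 4.55%. The list falls into 55 PP2C genes and 23 others. Without gained genes and those of lower signal, 18 of 51 PP2C genes were higher and 11 lower at both lengths, with median log2 ratios of 0.04 and 0.27. Of the 15 others left, 8 were higher and 0 lower at both, with medians of 0.46 and 0.67.

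The gene families of the gained members did not all follow them. *RAB16C* and *RAB16D* lie close to *RAB16B* and *RAB21* on chromosome 11. *RAB16C* had signals of 332 in WT against 1062 in *pho* in the shorter panicles and 238 against 408 in the longer, higher in *pho* at each length but short of the limit at the second. *RAB16D* stayed near background, with 10.2 against 50.4 in the shorter panicles and 10.2 against 120 in the longer. *DREB1B*, which lies near *DREB1A* on chromosome 9, had 38.0 against 767 in the shorter panicles but 941 against 885 in the longer. It was thus far higher in *pho* in the shorter panicles and not in the longer ones, where WT was at the level of *pho*. *DREB1G* had 14.7 against 150 in the shorter panicles and 347 against 151 in the longer, so that its order turned. *DREB1E* had 48.5 against 187 in the shorter panicles and 233 against 359 in the longer.

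*ABA8OX2*, the second ABA hydroxylase, had 3446 in WT against 7607 in *pho* in the shorter panicles and 1821 against 6293 in the longer. It was higher in *pho* at each length, with log2 ratios of 1.14 and 1.78, and fell short of the limit at the first alone. *NAC6*, a stress-related NAC transcription factor, had 761 against 1089 in the shorter panicles and 255 against 3647 in the longer, so that most of its difference lay in the longer panicles. *BZIP23*, a transcription factor of ABA signalling, had 2366 against 3250 in the shorter panicles and 1943 against 3957 in the longer. For *TRAB1*, another such factor, the signals were 3075 against 2510 and then 2435 against 2461. The *salT* gene, which encodes a lectin induced by salt, had 9144 in WT against 488 in *pho* in the shorter panicles and 6956 against 30061 in the longer, so that its order turned the other way. Other dehydration genes stayed close to WT, *DHN1* with 4234 against 4581 and then 3444 against 2737, and *LEA19* with 1247 against 1620 and then 247 against 341.

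**Figure D3:**
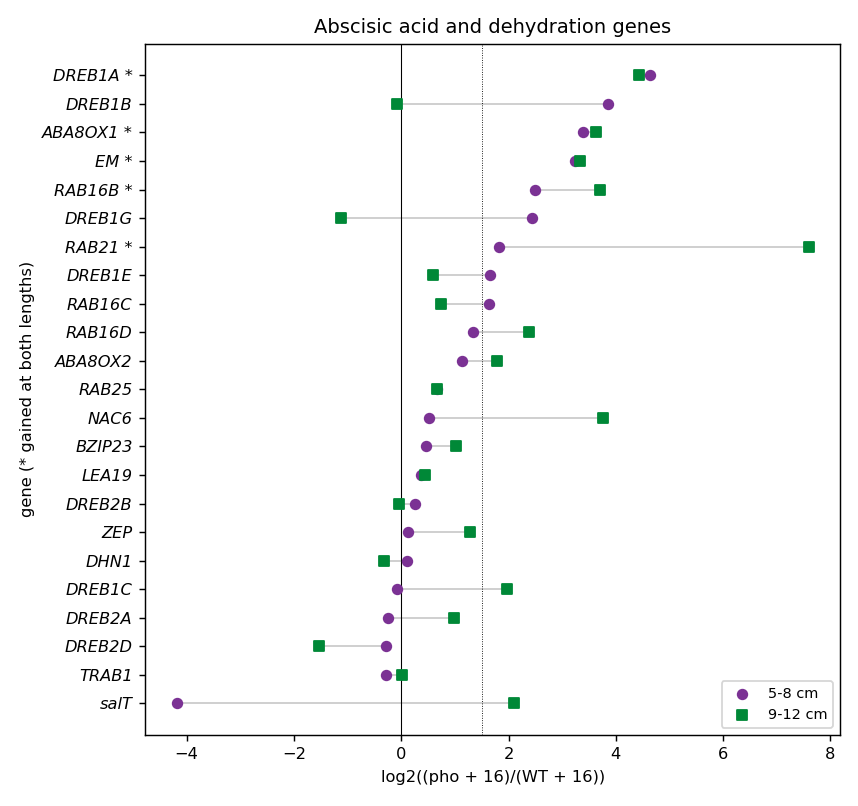
Log2 ratio of *pho* over WT (x axis) for the 23 measured ABA and dehydration genes other than PP2C genes, at 5–8 cm (purple circles) and 9–12 cm (green squares), with gained genes starred and the dotted line at 1.5. *RAB21* and *salT* have the widest spans between the lengths, and *DREB1B* and *DREB1G* lie well above 0 at 5–8 cm and below 0 at 9–12 cm.

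Of the gained transcription factors outside this list, *NAC068*, of the NAC family, had signals of 179 in WT against 595 in *pho* in the shorter panicles and 72.6 against 1751 in the longer. The longer panicles had the lower signal in WT and the higher one in *pho*, so the ratio was 3.13-fold and 19.9-fold, the latter on a WT signal near background. *HOX10*, a homeodomain-leucine zipper gene, had 156 against 722 in the shorter panicles and 203 against 606 in the longer, but its brightest probe set was lower in *pho* at 9–12 cm. *C3H37*, by its name a CCCH zinc finger protein, was already abundant in WT, with 2006 against 5822 in the shorter panicles and 1061 against 12205 in the longer. The stress-associated zinc finger protein *SAP1* had 750.3 against 2938 in the shorter panicles and 1509 against 5804 in the longer. Its signal was near 2-fold higher in the longer panicles in both genotypes, which left the ratio at 3.86-fold and 3.82-fold. *CPK13*, a calcium-dependent protein kinase, had 166 against 1024 in the shorter panicles and 282 against 937 in the longer. Its brightest probe set differed by only 1.69-fold and 2.30-fold.

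Other named genes encode enzymes of primary metabolism, grouped here only by what they are known to do. *PDC2*, a pyruvate decarboxylase of ethanol fermentation, had signals of 536 in WT against 3825 in *pho* in the shorter panicles and 1036 against 7480.0 in the longer, 6.96-fold and 7.13-fold, but its brightest probe set differed by 1.16-fold and 2.07-fold. *PDHE1-A*, a subunit of pyruvate dehydrogenase, which carries pyruvate into respiration, had 416 against 1869 in the shorter panicles and 203 against 1346 in the longer. Its signal was lower in the longer panicles in either genotype. *ALDP*, the aldolase of the chloroplast, had 783 against 2925 in the shorter panicles and 1023 against 9466 in the longer, and its second probe set had 425 against 2138 and then 770.2 against 5728. *RCA*, the activase of Rubisco, had 174 against 545 in the shorter panicles and 239 against 2790.4 in the longer. *GDCSH*, a subunit of glycine decarboxylase, which acts in photorespiration, had 177 against 673 in the shorter panicles and 349 against 1207 in the longer. The ratio of *ALDP* and *RCA* was larger in the longer panicles, and that of *GDCSH* was not.

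*RCA* is also the single gained member of the leaf marker list of photosynthesis and chlorophyll genes. Of that list, 15 of 19 genes with a mean signal of at least 100 were higher in *pho* at both lengths, or 78.9% against 27.2% of all genes. By 2-fold or more at both it was 2 of the 19, or 10.5% against 2.19%. The difference was small in the shorter panicles, with a median log2 ratio of 0.41 against 1.81 in the longer. Its summed signal was 43610 in WT against 58926 in *pho* in the shorter panicles and 29539 against 103493 in the longer. Of the tapetum and pollen list, 10 of 11 were lower at both lengths, where 36.5% of all genes were, its summed signal was 15935 to 58971 in WT and 3153 to 4692 in *pho*, and it held no gained gene. The part that leaf tissue, missing anthers or RNA quality has in the gained signals was not tested.

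Of the remaining named genes, *Agglutinin*, by its name a lectin, had 41.6 in WT against 596 in *pho* in the shorter panicles and 54.7 against 989 in the longer. Its WT signals lay at the array medians, so the size of its ratio depends on the 16 that was added. *PMEI8*, a pectin methylesterase inhibitor, had 325 against 1321 in the shorter panicles and 113 against 2701 in the longer. As with *NAC068*, the longer panicles had less signal in WT and more in *pho*, and the ratio went from 3.92-fold to 21.1-fold. *BGLU27*, a beta-glucosidase, had 234 against 696 in the shorter panicles and 277 against 1818 in the longer. *PAL*, the phenylalanine ammonia-lyase that opens phenylpropanoid synthesis, had 508 against 1955 in the shorter panicles and 3467 against 11597 in the longer. On this gained probe set the signal differed more between the lengths than between the genotypes, and WT at 9–12 cm exceeded *pho* at 5–8 cm. The brightest *PAL* probe set differed between the genotypes by only 1.24-fold and 1.47-fold.

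Of 21 lists in all, 8 held at least 1 gained gene and 13 held none, and 11 of the 20 named genes were in a list. The 40 measured jasmonate genes, the 19 gibberellin genes, the 60 auxin genes, the 31 cytokinin genes, the 53 heat shock and chaperone genes, the 151 transport genes and the 80 cell wall genes each held 0 gained genes, the JAZ genes being left out by the rule. Since 0.503% of all genes were gained, a count of 0 in lists of these sizes is near the background and nothing is read from it.

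Most of the strongest signals among the gained probe sets belonged to genes with a locus number only. LOC4340083 had the highest, 3975 in WT against 19244 in *pho* in the shorter panicles and 1222 against 21868 in the longer, and all 4 of its gained probe sets were higher at 9–12 cm in *pho* than at 5–8 cm. LOC4341944 had 2419 against 14507 in the shorter panicles and 3492 against 16333 in the longer, but its brightest probe set, with 24400 against 29148 and then 28257 against 32582, differed by 1.19-fold and 1.15-fold. LOC4346226 had 3818 against 10885 and then 1127 against 19694. In the first and the last of these, the longer panicles had less signal in WT and more in *pho*. LOC4334553 had 2286 against 11029 and then 850 against 17152, and LOC4343418 had 5871 against 16822 and then 2613 against 11061. Near the other end of WT expression, the gained probe set of LOC9268613 had 15.5 against 963 in the shorter panicles and 4.6 against 931 in the longer. It thus lay at background in WT and well above it in *pho*, but it is marked for several transcripts. Another probe set of the gene, not so marked, had 20.4 against 10.8 and then 52.9 against 24.6. All of these signals lay below the median of their array, so they cannot show whether the gene gained signal. The gained one is 1 of the 5 probe sets with a log2 ratio of 4 or more at both lengths, with *DREB1A* and 3 that have no gene in the annotation. One of these had 4.1 against 1636 in the shorter panicles and 47.7 against 1160.3 in the longer. Another, marked for several transcripts, had 48.3 against 2087 and then 36.5 against 1641. All 5 had WT signals near background on at least 1 array, so the sizes of their ratios and their order depend on the 16 that was added.

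Some gained genes lay side by side. Of the 90 genes, 12 had another gained gene within 5 positions in the gene order of the rice assembly ASM3414082v1, or 13.3%, and 2.66% of the other 17815 measured genes had a gained gene that near. The 6 pairs were *RAB16B* and *RAB21* on chromosome 11, LOC4330777 and LOC4330780 on chromosome 2, LOC4333009 and LOC4333011 on chromosome 3, LOC4337129 and LOC4337133 on chromosome 4, and LOC4340083 with LOC4340084 and LOC4341940 with LOC4341944 on chromosome 6. LOC4337133 had signals of 1878 in WT against 8551 in *pho* in the shorter panicles and 313 against 13003 in the longer, and its neighbour LOC4337129 had 864 against 3175 and then 327 against 7022. Both had less signal in the longer panicles in WT and more in *pho*. LOC4333009 had 144 against 2067 in the shorter panicles and 514 against 8513 in the longer, with 152 against 615 and then 553 against 2834 for LOC4333011, so that both had more signal in the longer panicles in either genotype. The pair LOC4330777 and LOC4330780 did not share its course. The first had 150 against 2400 and then 377 against 1292, and the second 57.5 against 982 and then 264 against 3846. The brightest probe sets of some of these neighbours were not the gained ones. *pho* over WT on them was 0.72-fold and 0.64-fold for LOC4330780 and 1.19-fold and 1.15-fold for LOC4341944. For LOC4341940 it was 2.25-fold and 2.43-fold. Neighbours that are copies of each other can share hybridization, and the sequences were not compared. By chromosome, the share of measured genes that were gained ran from 0.22% on chromosome 12, with 2 of 908, to 0.714% on chromosome 6, with 10 of 1400.

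The ratio of *pho* over WT was larger at 9–12 cm than at 5–8 cm for 112 of the 142 gained probe sets, or 78.9%, whereas it was for 43.0% of the 23929 averaging 100 or more. It was larger by 1 or more on the log2 scale for 67, smaller by 1 or more for 7 and within 1 for 68. Ratios were also more widely spread at 9–12 cm among the 15098 probe sets with a *pho* signal of at least 300 on both arrays. Their SD was 0.53 at 5–8 cm and 0.92 at 9–12 cm, and 291 and 879 of them passed 1.5. A choice on both ratios favours a larger one at 9–12 cm, so nothing is read from this excess.

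By genotype, the WT signal was lower by 2-fold or more in the longer panicles for 37 of the 142, or 26.1%, against 3.09% of the 23929 probe sets. The *pho* signal was higher by 2-fold or more in the longer panicles for 45, or 31.7%, against 13.5%. The rule used all 4 signals, so these shares too are a description. Of the 37, *pho* was within 2-fold in 20, both probe sets of *RAB21* among them, lower as well in 6, *EM* and *RAB16B* among them, and higher in 11, *NAC068* and *PMEI8* among them. In 61 neither genotype differed by 2-fold between the lengths, *ABA8OX1*, *Agglutinin*, *PDC2* and *SAP1* among them. In 25, with *ALDP*, *BGLU27*, *C3H37* and *RCA*, *pho* alone was higher in the longer panicles. WT was higher there in 16, with *pho* within 2-fold in 7 such as *DREB1A* and higher as well in 9 such as *PAL*. The steepest gain in ratio after *RAB21* with a gene was that of LOC4332595, which had 1680 against 7425 in the shorter panicles and 101 against 9553 in the longer. The ratio was smaller in the longer panicles for LOC4336904, with 67.0 against 1316 and then 259 against 1208, where WT was closer to *pho* in the longer panicles.

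**Figure D4:**
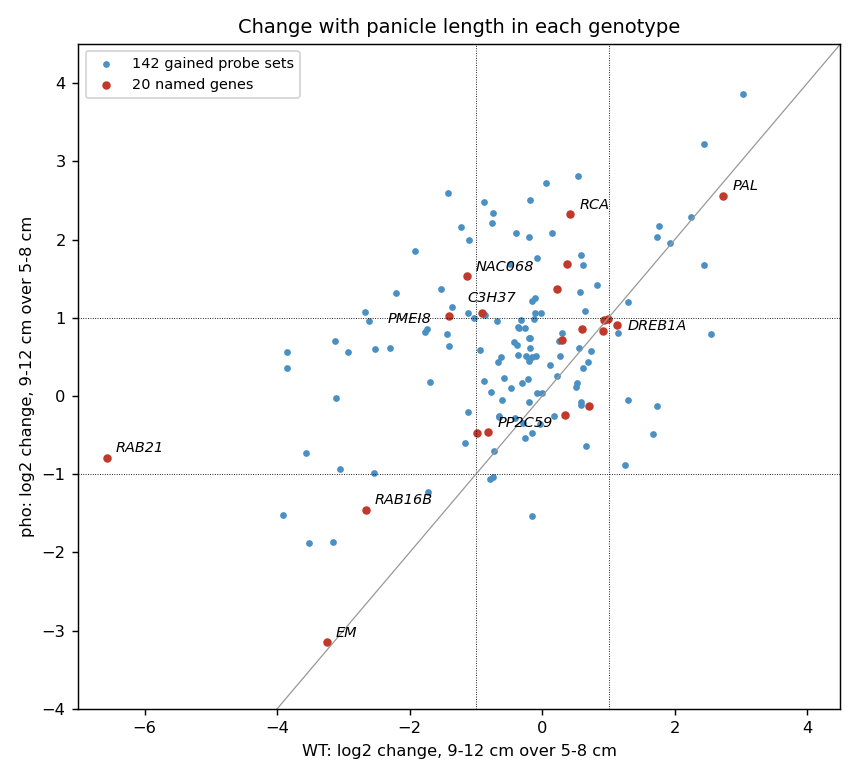
Log2 change from 5–8 to 9–12 cm in WT (x axis) and in *pho* (y axis) for the 142 gained probe sets, 1 point each, with the 20 named genes in red. Dotted lines mark 2-fold changes and the grey line equal change in both genotypes. *RAB21* lies farthest to the left, *EM* lowest on the grey line, and *PAL* near its upper end.

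Length itself was tested on the mean change of both genotypes, which is not a difference that the rule used. limma was fitted to log2(signal + 16) with genotype as a term, over the same 23929 probe sets, which include all 142. No gained probe set passed at an adjusted p under 0.05, and 0% of all tested probe sets did. At an unadjusted p under 0.05 there were 36 gained probe sets, 23 higher and 13 lower in the longer panicles, or 25.4% against 10.6% of all tested. Among the named genes, the log2 change of *EM* with length was -3.20 (SE 0.283, with limma's adjusted p at 0.152) and that of *PAL* was 2.65 (SE 0.252, with the same adjusted p of 0.152). For *EM* this was lower in 2 of 2 genotypes, and for *PAL* higher in 2 of 2. The value of *PAL* is that of its gained probe set. Its brightest probe set changed by 1.37 in WT and 1.62 in *pho*. Over all its probe sets that were not gained, the change ran from 0.36 to 1.49 in WT and from 0.15 to 3.38 in *pho*. The fit has 1 array per genotype and length, and its error is the difference in length change between the genotypes. That difference equals the difference between the ratios that chose the probe sets, so the p-values and the share of 25.4% are not independent of the rule and nothing is read from the share. With each array centred on its median signal 2 gained probe sets passed, 1 up and 1 down.

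Other probe sets of the same genes were read as well. Of the 90 genes, 29 had another probe set that was not gained, 39 probe sets in all. Of the 29 such probe sets that averaged 100 or more, which belong to 22 genes, 22 were higher in *pho* at both lengths, 7 of them by 2-fold or more, and 7 were lower at 1 or both, with median log2 ratios of 0.65 and 1.05. They are the probe sets of these genes that the rule did not take, so lower medians than those of the gained ones follow from the choice. In 13 genes the brightest probe set was not the gained one, and it was below 2-fold at both lengths in 5, below 2-fold at 1 length in 4 and above it at both in 4.

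*HOX10* was the 1 named gene whose brightest probe set was lower in *pho* at a length. That probe set had 5173 in WT against 5696 in *pho* in the shorter panicles and 5000 against 3174 in the longer, whereas its dim gained probe set was higher in *pho* at both. The brightest probe set of *PDC2* had 14498 against 16791 in the shorter panicles and 11183 against 23170 in the longer, 1.16-fold and 2.07-fold. That of *PAL* had 6113 against 7561 and then 15832 against 23202, 1.24-fold and 1.47-fold. Both were higher in *pho* at each length, but by much less than their gained probe sets. Other *PAL* probe sets brighter than the gained one differed by 1.27-fold and 1.42-fold and by 1.10-fold and 0.95-fold. A dimmer one differed by 0.63-fold and 3.74-fold. On its brightest probe set *CPK13* had 4370 against 7416 and then 4462 against 10267, 1.69-fold and 2.30-fold. For *RCA* the brightest probe set had 911 against 1438 in the shorter panicles and 1225 against 9604 in the longer, which is 7.75-fold at the longer length beside 11.03-fold for the gained one. Among genes with a locus number, LOC4330780 had 10403 against 7483 and then 10537 against 6751 on its brightest probe set, lower in *pho* at both lengths. Probe sets of a gene can read different transcripts or different distances from the 3′ end, and the control ratios that mark such distance differed most at 5–8 cm, with 10.6 in WT and 3.28 in *pho* for actin. Their part in these disagreements was not tested.

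**Figure D5:**
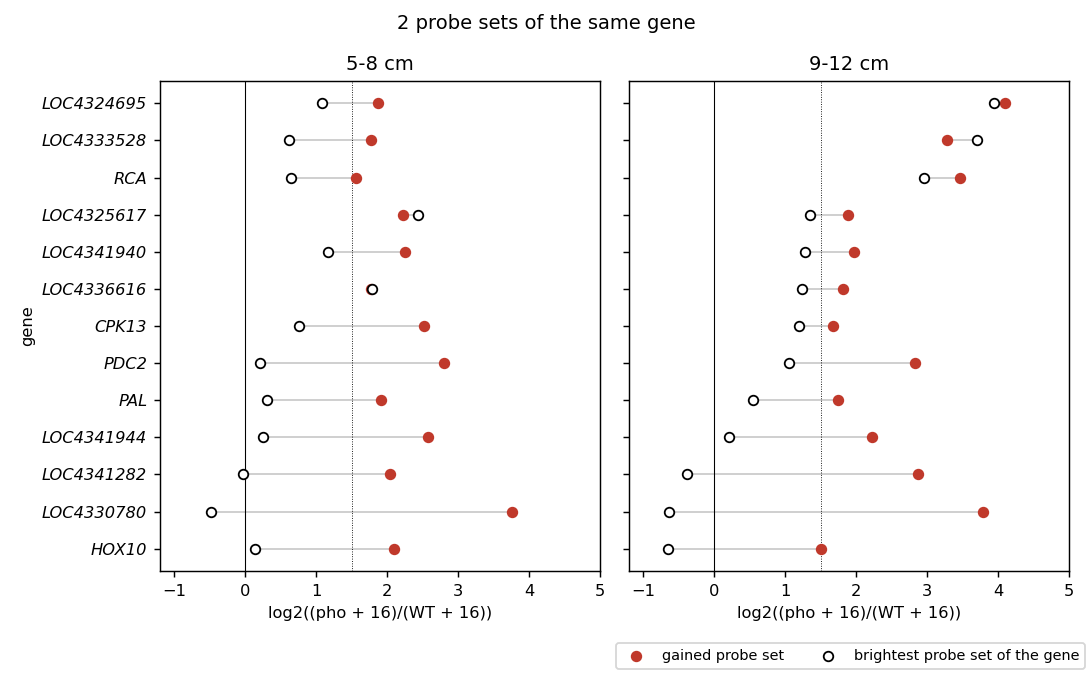
Log2 ratio of *pho* over WT (x axis) at 5–8 cm (left) and 9–12 cm (right) for the gained probe set (red) and the brightest probe set (open) of the 13 genes in which they differ. The dotted line marks the 1.5 of the rule, and the open points of *HOX10*, LOC4330780 and LOC4341282 lie below 0 at 9–12 cm.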

How the data were processed

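Total RNA of WT and *pho* panicles was hybridized to Affymetrix GeneChip Rice Genome Arrays, 1 array per genotype and length. The authors computed MAS5 signal intensities with GCOS (versions not given in the sources used here) and brought all arrays to a common overall level. The deposited intensities were used without further normalization. The deposited table held 0 columns of other samples, and 123 AFFX controls were left out. Genes were named through the platform annotation and the RefSeq gene table of the assembly ASM3414082v1, which was used for names and gene order alone. Detection calls and sequences were not used here.

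The members, the gene lists and the tests were chosen with earlier results of these data known, and the ABA and dehydration list was edited after values were seen, when *EM* was added and names of the RAB and LIP kind with no tie to ABA were taken out. A list takes genes by symbol or synonym, so unnamed genes entered none, and an unnamed JAZ or OsMADS gene would not have been left out. A gene in a list was represented by its probe set of highest mean signal. Genes were named where the tables give a name. Those given with all 4 signals were the 3 of highest *pho* signal per list, the 10 of highest smaller ratio and the extremes of signal and of the difference between lengths. The other named genes, the near relatives of gained genes, the neighbours and the probe sets of the same gene were added after their values were seen.

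Panicle length was tested with lmFit and eBayes (intensity trend, two-sided, Benjamini-Hochberg adjustment at 0.05) with log2(signal + 16) as the response, in limma 3.58.1 (R 4.3.3). On simulated arrays the fit found a minority of the changed probe sets, nearly all of them with the largest change. With 4 arrays the precision is low. The p-values set the length change against its difference between the genotypes, and not against a spread between replicate samples. Tables were made with Python, numpy and pandas. Alternatives were pseudocounts of 1 and 64, centring, quantile normalization, other limits of signal and ratio, leaving out probe sets marked for several transcripts, leaving out arrays, and other filters and terms in the length fit.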

Additional observations from a re-analysis of the deposited data

Results flagged for a closer look

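In *NAC068* and *PMEI8*, WT went down and *pho* went up 2-fold or more between the lengths, so that the log2 ratio of *pho* over WT was larger at 9–12 cm by 2.67 in *NAC068* and by 2.43 in *PMEI8*. Among genes related to the gained ones, *salT* was lower in *pho* at 5–8 cm and higher at 9–12 cm, and its log2 ratio differed by 6.29. *DREB1G* took the opposite course, and its log2 ratio at 9–12 cm minus that at 5–8 cm was -3.55, a size that depends on the 16 added, since its WT signal at 5–8 cm was 14.7, below the array median. With 1 array per genotype and length, these differences were not tested.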

How the results depend on the processing

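The number of gained probe sets was 351 with a log2 ratio of 1 and 68 with one of 2, and 86 when probe sets marked for several transcripts were left out, of which 71 had the larger ratio at 9–12 cm. Leaving out each array in turn gave 178 to 1426 gained probe sets. With other pseudocounts, centring, quantile normalization or a minimum *pho* signal of 150 or 600 the number was 111 to 186, and 128 of the 142 remained under quantile normalization. Both median log2 ratios moved by less than 1 SD between the lengths under every alternative run on them. Of the 40 log2 ratios of the named genes, 7 to 14 per setting moved by at least 1 SD between the gene's own ratios at the lengths. Where these lie close together the shift can be small, as for *SAP1* at 5–8 cm. Its ratio went from 1.947 to 1.968 with a pseudocount of 1. Of the 20 named genes, *BGLU27*, *HOX10*, *NAC068* and *RCA* no longer met the rule with a pseudocount of 64, *BGLU27*, *C3H37* and *HOX10* with centring, and *BGLU27*, *NAC068* and *RCA* with quantile normalization. After centring the arrays on their medians 2 gained probe sets passed the length test, and centring moved the median length change of all tested probe sets from -0.08 to -0.44. In the other settings 0 passed. No paired analysis was possible because the contrast that the replicate numbers could pair, *pho* with WT at a length, chose the probe sets and has no test here, while in the length fit the number is the length itself. Leaving out an array from the length fit left no residual degrees of freedom, so it was not run. Signals near the array medians limit the ratios of genes that are dim in WT.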
